A study of Rattus norvegicus with 6 samples.

Results

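Insulin signalling in the liver was followed through 7 genes, Insr, Irs1, Pik3r1, Akt1, Akt2, Gsk3b and Ptpn1, which run from the receptor to the kinases it controls and to a phosphatase that opposes it. They were chosen by name, with earlier results of these data known. Every probe set (a group of probes that together measure 1 transcript) whose single annotated symbol was one of the 7 was taken. This gave 15 probe sets of 8740 on the array that are not array controls. Liver RNA came from 3 samples labelled NASH and 3 labelled Control, all from male Sprague Dawley animals kept on liquid feed by total enteral nutrition, a tube feeding that fixes intake, over 3 weeks. The NASH group, named for nonalcoholic steatohepatitis, received 70% corn oil at 220 kcal per kg of metabolic body mass and day, and the Control group received 5% corn oil at 187 kcal. The titles and source names give these groups, while the free-text description of each of the 6 samples, NASH included, reads as that of Control 1, so that every group difference here rests on the titles and source names. Fat content and energy supply differ together and cannot be told apart. The sources used here give neither the animals' age nor when they were last fed before the tissue was taken. No label says whether each sample is a different animal, and the p-values cover the spread among these 6 samples alone, which may be technical.

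Insulin binds its receptor on the hepatocyte surface, the receptor phosphorylates docking proteins, and these recruit PI3-kinase, whose lipid product activates Akt. Akt inactivates the kinase GSK3, which frees glycogen synthase, and keeps FOXO transcription factors out of the nucleus, which lowers transcription of genes such as Igfbp1. Much of this regulation is by phosphorylation, which an array of transcripts does not measure.

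None of the 7 genes passed the test between the diets. Of the 15 probe sets, 11 lay above the intensity filter and were tested, and 0 were called at 0.05 (limma, p-values adjusted by Benjamini-Hochberg over all probe sets tested). Over the whole array 7 of 5244 tested probe sets were called, or 0.133% (0.0953% higher and 0.0381% lower in NASH). At an unadjusted p under 0.05 there was 1 member, a Ptpn1 probe set higher in NASH (9.09% of 11, against 7.86% of all probe sets tested, 3.81% higher and 4.04% lower). By sign alone, 6 of the 11 were higher in NASH and 5 lower, against 47.1% higher and 52.9% lower over all tested. The differences of the 11 ran from −0.62 to 0.55 on the log2 scale with a median of 0.02, beside a median of −0.02 over all tested probe sets, with quartiles at −0.24 and 0.22. Akt2, Gsk3b and Ptpn1 held the probe sets whose diet groups did not overlap, and Insr, Irs1 and Akt1 held none. The plot of the members by array shows all 15 probe sets.

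**Figure D1:**
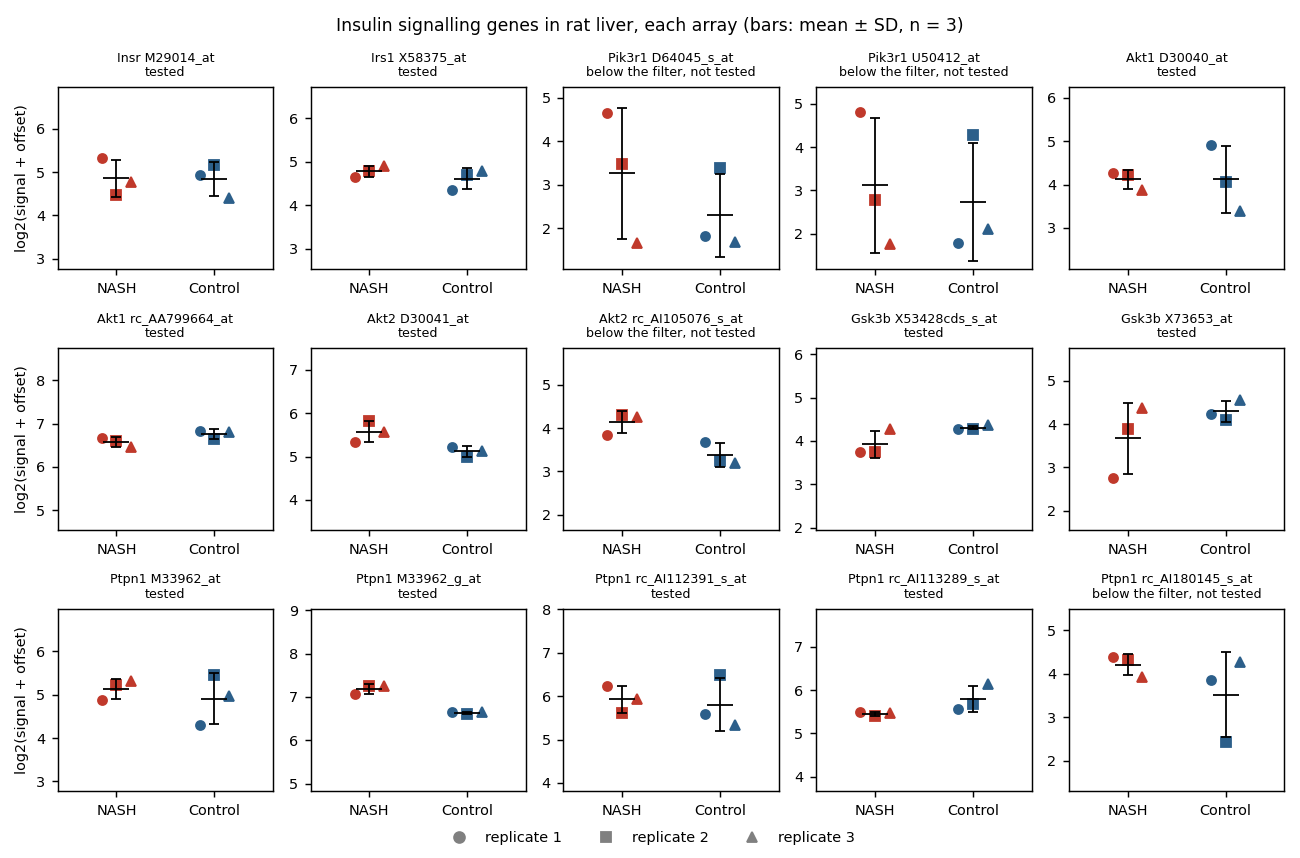
Each panel is 1 probe set of the 7 insulin signalling genes, with log2(normalized signal + offset) on the vertical axis over the same span in every panel and NASH left of Control. Points are single arrays, shaped by replicate number, and bars are mean ± SD (n = 3 arrays per group). NASH lies above Control without overlap for both Akt2 probe sets and for Ptpn1 M33962_g_at, and the Pik3r1 panels show the widest spread within a group.

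The arrays were all of liver. Hepatocyte marker signals summed to 84722.5 to 113653 in NASH and 103733 to 131520 in Control (39 of 42 probe sets tested, 0 called), in deposited units that were not scaled between arrays, with Alb and Ttr among the brightest. NASH 2 stood apart by its fat and muscle transcripts. Adipose markers summed to 4209 in NASH 2 and 463 to 561 in the other NASH arrays, against 472 to 601 in Control, and skeletal muscle markers to 2297 in NASH 2 and 97.5 to 109.5 in the other NASH arrays, against 76.5 to 146 in Control. Not every single marker of these lists was highest in NASH 2. In Control 3 the actin control probes read 5.07 times more at the 3' end than at the 5' end, where the other arrays gave at most 2.93. An exact permutation test of these sums between the diets (two-sided, 3 against 3) gave p = 0.7 for adipose and 0.6 for muscle, where 0.1 is the smallest possible p. No marker of Kupffer cells and leukocytes, stellate cells, endothelium or bile ducts was called either, and the summed ranges of the diets overlapped for each of these lists. For stellate cells NASH 2 again had the highest sum, 1246, against 288 and 649 in the other NASH arrays and 476 to 906 in Control. For Kupffer cells and leukocytes NASH 2 summed to 1543, against 720 and 1069 in the other NASH arrays and 1081 to 1315 in Control. NASH 1 was highest for endothelium and bile ducts. In tissue RNA, fewer cells of a type and less RNA per cell cannot be told apart.

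Insr encodes the insulin receptor itself, a tyrosine kinase that spans the membrane. Its only probe set, M29014_at, had normalized signals (quantile normalized between arrays) of 37.9, 19.9 and 24.9 in NASH 1, 2 and 3, against 28.4, 33.4 and 18.9 in Control 1, 2 and 3. The groups overlapped throughout, with the highest value in NASH 1 and the lowest in Control 3, the array with the highest 3' to 5' ratios, whose part in this was not tested. On the log2 scale Insr averaged 4.85 ± 0.44 in NASH and 4.83 ± 0.39 in Control (SD, n = 3 each), a difference of 0.02 with a 95% interval from −0.70 to 0.74 (limma adjusted p = 0.992). The sign rested on single arrays, with −0.22 without NASH 1 and −0.19 without Control 3.

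The Insr promoter is shown because FOXO factors are known to raise transcription of this gene in fly and mammalian cells, and that of Igfbp1, the best known insulin-repressed transcript of the liver, for comparison. RefSeq (build GRCr8) gives 1 promoter window per gene, at 1 of what may be several starts. For Insr, Akt1, Akt2, Gsk3b and Ptpn1 that window lies inside the annotated span of the gene and not before its outermost end. In the 250 bases before the start used there, the letters GTAAACA, a FOXO-type motif, were searched on both strands, as were CAAAACA, a core found in insulin response elements such as that of Igfbp1. Of 33469 rat promoters, 3.21% held the first and 5.46% the second. Among the 7 members the first occurred in Insr alone and the second in none. Igfbp1 held the second, but that motif was introduced from its own element, so this match is no test. The stretches below run 5′ to 3′ on the strand of the gene, at chr12:6128852-6128948 (minus strand) for Insr and chr14:86261111-86261207 (plus strand) for Igfbp1, with the match in capitals. The Insr match is the reverse complement of the motif and begins at position −100 from the start, and the Igfbp1 match at position −121.
Insr: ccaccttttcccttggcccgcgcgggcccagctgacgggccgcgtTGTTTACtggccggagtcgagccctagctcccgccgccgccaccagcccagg
Igfbp1: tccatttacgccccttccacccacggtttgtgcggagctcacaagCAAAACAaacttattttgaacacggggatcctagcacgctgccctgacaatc
A match to letters is a description of the window and not a measured binding site. The upstream windows of Insr, Irs1, Pik3r1 and Ptpn1 were rich in G and C (70.8% to 77.2%, at or above the 93.1 percentile of all promoters), while that of Gsk3b had 34.4%.

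Irs1 encodes insulin receptor substrate 1, a docking protein that carries the signal from the receptor to PI3-kinase. X58375_at gave 22.9, 25.5 and 27.8 in NASH, against 18.1, 23.9 and 25.5 in Control. It was among the steadier transcripts of the array, with a within-group SD at the 18.4 percentile of tested probe sets. The groups overlapped, and only Control 1 lay below all 3 NASH arrays. The difference was 0.17 on the log2 scale with a 95% interval from −0.37 to 0.71 (limma adjusted p = 0.871), and 0.04 without Control 1.

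Pik3r1 encodes the p85 alpha regulatory subunit, through which PI3-kinase binds phosphorylated docking proteins. Both of its probe sets were dim, with mean levels at the 18.7 and 21.6 percentiles of the array, below the filter, and were not tested. D64045_s_at had normalized signals of 22.8, 8.86 and 0.961 in NASH, against 1.30, 8.29 and 1.01 in Control. U50412_at had 25.7, 4.61 and 1.204 in NASH, against 1.26, 17.3 and 2.14 in Control. In both, NASH 1, NASH 2 and Control 2 were high and the other 3 arrays lay at or below 2.21, the offset added before taking logs. Control 2 had more than NASH 2 on U50412_at and slightly less on D64045_s_at. The high and low arrays crossed the diet groups, and no fold is given against signals this dim. The log2 values of the 2 probe sets correlated with r = 0.917 over the 6 arrays, which share the same RNA samples.

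Akt1 and Akt2 encode closely related kinases, of which Akt2 is the isoform most tied to insulin's control of glucose. Akt2 was higher in all 3 NASH arrays than in all 3 Control arrays with both probe sets. D30041_at had 38.3, 54.3 and 45.1 in NASH, against 35.3, 29.6 and 32.9 in Control. The dimmer rc_AI105076_s_at had 12.2, 17.4 and 17.0 in NASH, against 10.7, 7.21 and 6.99 in Control, and lay just below the filter, so that it was not tested. Both ranked NASH 2 and NASH 3 highest, then NASH 1, then Control 1. Their log2 values correlated with r = 0.937 over the 6 arrays, and with 0.849 in log2 of the deposited signals.

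On the log2 scale D30041_at averaged 5.57 ± 0.24 in NASH and 5.12 ± 0.12 in Control (SD, n = 3 each), a difference of 0.46 ± 0.21 (standard error, 1.37-fold). That missed the threshold (limma adjusted p = 0.619, 95% interval from −0.03 to 0.94). Its difference stayed above 0 with each array left out, from 0.34 without NASH 2 to 0.58 without NASH 1. NASH 2, the array with the fat and muscle transcripts, had the highest value on both probe sets, and the value of 0.34 is the difference without it. For rc_AI105076_s_at the untested difference was 0.76 (1.69-fold). In the deposited signals D30041_at overlapped, at 33.1 in NASH 3 and 40.1 in Control 1, while rc_AI105076_s_at did not.

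Akt1 gave no such separation. Its bright probe set rc_AA799664_at had 100.1, 94.9 and 85.8 in NASH, against 111.7, 97.4 and 110.4 in Control. NASH 1 exceeded Control 2, and the difference of −0.18 had a 95% interval from −0.61 to 0.25 (limma adjusted p = 0.821). The dim D30040_at had 17.0, 16.5 and 12.4 in NASH, against 28.1, 14.4 and 8.23 in Control, so that Control held both the highest and the lowest array. Its difference was −0.00006 with a 95% interval from −0.97 to 0.97, and ran from −0.36 without Control 3 to 0.39 without Control 1. Agreement between the Akt1 probe sets was weak (r = 0.202 over 6 arrays). It was 0.555 in log2 of the deposited signals, which have neither the offset nor scaling between arrays. Whether the diets acted differently on Akt1 and Akt2 was not tested.

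**Figure D2:**
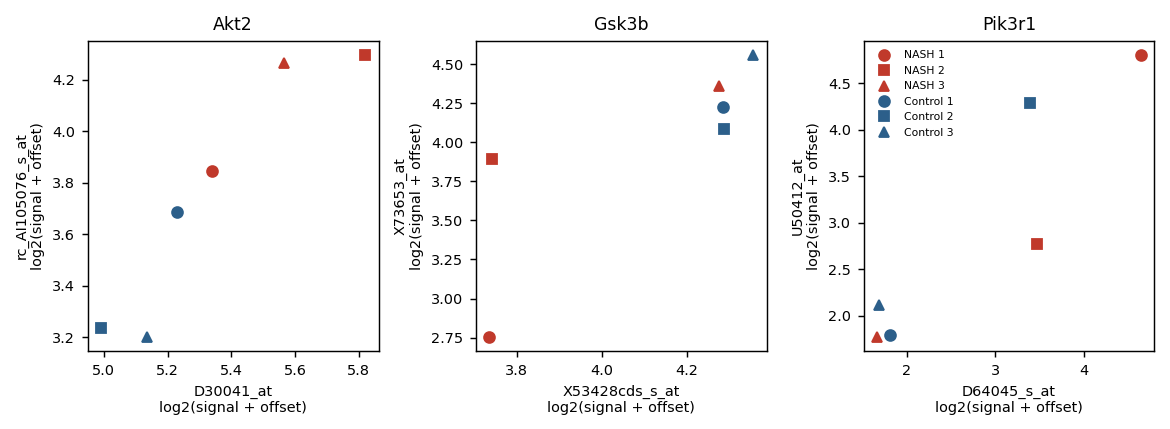
Each panel sets the 2 probe sets of Akt2, Gsk3b or Pik3r1 against each other in log2(normalized signal + offset), 1 point per array, NASH in red and Control in blue. The Akt2 arrays line up with the 3 NASH points at the upper right, and the Pik3r1 arrays separate NASH 1, NASH 2 and Control 2 from the other 3.

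Gsk3b encodes glycogen synthase kinase 3 beta, which Akt holds inactive when insulin is present. Both probe sets were dim and lay near the filter (42.9 and 40.6 percentiles of the array). X53428cds_s_at had 11.1, 11.2 and 17.2 in NASH, against 17.3, 17.3 and 18.3 in Control. NASH 1 and NASH 2 were low, and NASH 3 lay just under the lowest Control array, 17.17 against 17.29. X73653_at had 4.53, 12.6 and 18.3 in NASH, against 16.5, 14.8 and 21.4 in Control, with NASH 1 lowest and NASH 3 inside the range of Control. In the deposited signals, which lack scaling between arrays, the NASH arrays lay below the Control arrays on both probe sets (at most 12.6 against at least 16.1 on X53428cds_s_at, and at most 13.8 against at least 16.5 on X73653_at).

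The Gsk3b differences did not pass the test. They were −0.39 ± 0.29 on X53428cds_s_at (1.31-fold lower in NASH, limma adjusted p = 0.738) and −0.62 ± 0.45 on X73653_at (1.54-fold lower, adjusted p = 0.734), with 95% intervals from −1.07 to 0.28 and from −1.66 to 0.42. Without NASH 1 the X73653_at difference was −0.16. Between NASH 3 and Control 2, the pair of arrays with a blank wash record, the differences were −0.0084 and 0.26.

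Ptpn1 encodes PTP1B, the tyrosine phosphatase that removes phosphate from the activated insulin receptor and so limits its signal. It had 5 probe sets, of which 4 were tested, and their differences ran in both directions. M33962_g_at, the brightest, had 131.3, 149.9 and 149.9 in NASH, against 98.9, 95.6 and 97.7 in Control. All 3 NASH arrays lay above all 3 Control arrays, and the spread within the groups was small, with an SD at the 1.47 percentile of tested probe sets. On the log2 scale it averaged 7.19 ± 0.11 in NASH and 6.64 ± 0.02 in Control (SD, n = 3 each), a difference of 0.55 ± 0.18 (1.46-fold, 95% interval from 0.13 to 0.97). Its unadjusted p of 0.0170 ranked 172 of 5244 probe sets, and the limma adjusted p was 0.508. With each array left out the difference ran from 0.52 to 0.61. Scaling mattered to the separation, since in the deposited signals NASH 3 had 113.2 and Control 1 had 117.9.

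In none of the other Ptpn1 probe sets did NASH lie above Control without overlap. M33962_at, designed from the same reference sequence, had 27.2, 35.1 and 37.5 in NASH, against 17.4, 41.9 and 29.0 in Control, and differed by 0.23 with a 95% interval from −0.51 to 0.97. The sign turned to −0.07 without Control 1. On rc_AI113289_s_at the order was the opposite, with 42.5, 40.04 and 42.2 in NASH, against 45.03, 49.2 and 68.5 in Control, a difference of −0.34 (95% interval from −0.84 to 0.15, limma adjusted p = 0.696) that was −0.17 without Control 3. Values of 73.2, 46.6 and 59.2 in NASH, against 46.0, 87.9 and 38.1 in Control, gave rc_AI112391_s_at a difference of 0.12 with overlapping groups. The dimmest, rc_AI180145_s_at, was below the filter, with 18.5, 17.8 and 13.1 in NASH, against 12.4, 3.14 and 17.1 in Control. Its untested difference was 0.69 (1.62-fold higher in NASH), with overlapping groups, and 0.14 without Control 2. Its correlation with M33962_g_at was 0.507, and 0.771 in log2 of the deposited signals, without offset or scaling between arrays. Correlations between the 5 probe sets over the 6 arrays ran from −0.690 to 0.507.

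**Figure D3:**
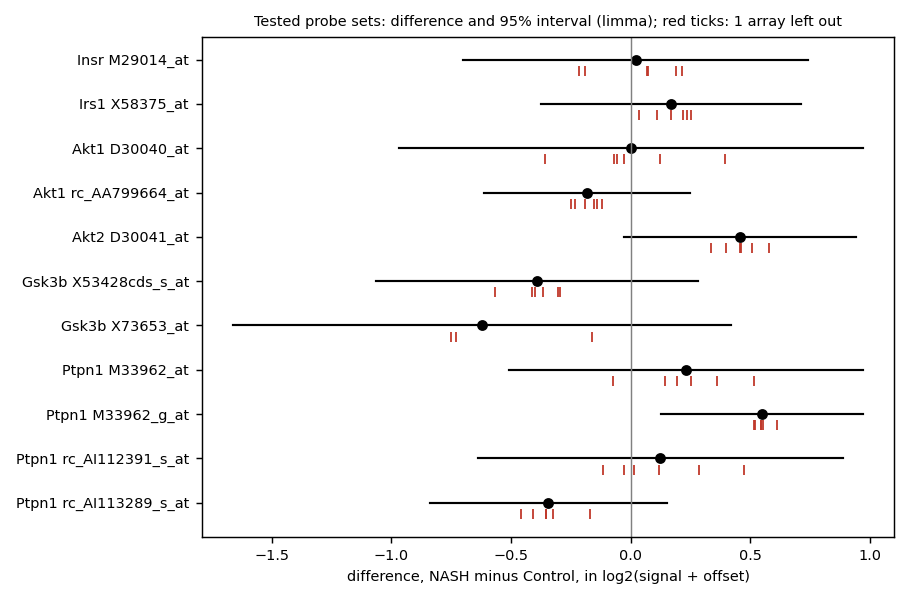
The 11 tested probe sets run down the page from the receptor to Ptpn1, with the difference (NASH minus Control, in log2 units) as a point and its 95% limma interval as a line. Red ticks below each line are the differences with 1 array left out, where the probe set still passed the filter. Only the interval of Ptpn1 M33962_g_at leaves out 0, before adjustment over 5244 probe sets.

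Groups that did not overlap were found for 4 of the 11 tested members (Akt2 D30041_at and Ptpn1 M33962_g_at higher in NASH, Gsk3b X53428cds_s_at and Ptpn1 rc_AI113289_s_at lower), or 36.4%, where the share over all tested probe sets was 14.3% (6.54% higher and 7.76% lower). With 2 of the 4 from 1 gene and of opposite sign, this count describes few genes. The brightest tested probe set of each of the 6 tested genes was set against the others, and the 15 correlations over the 6 arrays ran from −0.759 to 0.912 with a median of −0.177. The pair highest in this order was Akt2 with Ptpn1 M33962_g_at. Over the array, the gene whose pattern was most like Insr was Cp, ceruloplasmin (r = 0.993). For Irs1 it was Stk10 (0.976), for Akt1 Lnpep (0.986), for Akt2 Nxph4 (0.991), for Gsk3b Ncam1 (0.977) and for Ptpn1 Nedd8 (0.984). A typical tested probe set had a best match of 0.988 over these 6 arrays, so that matches of this size are common here. By rank (Spearman), Gsk3b with Ncam1 gave only 0.486, against 0.928 to 1 for the others.

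Other genes of the pathway were taken from 5 lists by role, which named 98 genes. Of these, 64 were on the array with a probe set of their own and 52 had at least 1 tested, in 85 probe sets. None was called by limma, and 10 had an unadjusted p under 0.05 (3 higher and 7 lower in NASH), or 11.8%, against 7.86% of all tested. Their median difference was −0.07. Groups did not overlap for 14 of the 85 (16.5%, against 14.3%), 4 higher and 10 lower. Every probe set of the phosphatase Dusp1 (differences of −1.32, −1.40 and −1.94) is among the lower ones in both counts. These counts of probe sets thus hold 1 gene more than once.

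Among receptor and docking proteins, 12 probe sets of 7 genes were tested, 3 higher and 9 lower in NASH, with a median difference of −0.18. Igf1r, the related receptor for insulin-like growth factor, differed by 0.56, with a second probe set at −0.31. The adaptor Grb2, which links receptors to Ras, differed by −0.25 on rc_AA801130_at (0.61 and 0.21 on its other probe sets). The adaptor Sh2b1 differed by −0.33 (−0.07 on a brighter probe set) and the membrane raft protein Flot1 by −0.24 (−0.17 on a brighter one). Limma adjusted p-values were 0.647 to 0.796 for the first difference given for each of these 4 genes. PI3-kinase and phosphoinositide enzymes were mostly dim, and 2 of 9 probe sets were tested. Pik3c3, the class III kinase of endosomes and autophagy, differed by 0.66 without overlap (adjusted p = 0.594), and the catalytic subunit Pik3cd by 0.09. Pdpk1, the kinase that phosphorylates Akt, picked after its values were seen, lay below the filter, with normalized signals from 1.13 to 4.89 over the 6 arrays.

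Downstream of Akt, 22 probe sets of 16 genes were tested, 10 higher and 12 lower, with a median of −0.03. The cell death factor Bad, an Akt substrate, differed by −0.55 on rc_AA818072_s_at, with 60.2, 59.6 and 59.9 in NASH, against 71.9, 90.3 and 108.0 in Control, and did not pass (limma adjusted p = 0.582). Its other probe set, AF003523_s_at, lay below the filter with overlapping groups, and its untested difference was 0.008. The S6 kinase Rps6kb1 differed by 0.50 on M57428_s_at and by 0.15 on M58340_at. The phosphodiesterase Pde3b, which lowers cyclic AMP under insulin, differed by −0.68, and the mTOR inhibitor Tsc2 by −0.41. Limma adjusted p ran from 0.619 to 0.683 for Rps6kb1 M57428_s_at, Pde3b and Tsc2. Foxo1 (0.09), Gsk3a (0.11), Mtor (0.02) and the liver glycogen synthase Gys2 (0.05), likewise picked as textbook steps after their values were seen, had smaller differences. They do not stand for the list, whose differences ran from −0.74 to 0.50.

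Among genes that restrain insulin signalling, 38 probe sets of 22 genes were tested, 18 higher and 20 lower. The phosphatase Dusp1, which inactivates MAP kinases, was nearest to a call. S81478_s_at had 48.8, 42.8 and 50.4 in NASH, against 118.2, 146.8 and 102.7 in Control, a difference of −1.32 (limma adjusted p = 0.0881), and the other Dusp1 probe sets differed by −1.40 and −1.94. It passed with array weights (adjusted p = 0.0290), and its adjusted p over all alternatives ran from 0.0290 to 0.496. Ceacam1, a liver protein that promotes insulin clearance, had 53.1, 34.3 and 46.6 in NASH, against 27.8, 18.0 and 13.7 in Control, and differed by 1.12 (adjusted p = 0.420). Cish, a suppressor of cytokine signalling, differed by −0.92 (limma adjusted p = 0.443). Fetuin-A (Ahsg), a secreted inhibitor of the receptor, differed by −0.23 on D10261_g_at, −0.78 on D10261_at and 0.02 on X63446_at. The mean level of D10261_at lay at the 47.9 percentile of the array, against 99.5 for D10261_g_at and 99.7 for X63446_at. In the Ras-MAP kinase arm 11 probe sets of 5 genes were tested, 5 higher and 6 lower, led by the kinase Araf at −0.44 (adjusted p = 0.619), with Map2k1 at 0.40, Nras at 0.51 on X68394_at and −0.30 on the brighter rc_AA943331_s_at, and Map2k2 at −0.17, with its other probe sets at 0.016 and −0.034.

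**Figure D4:**
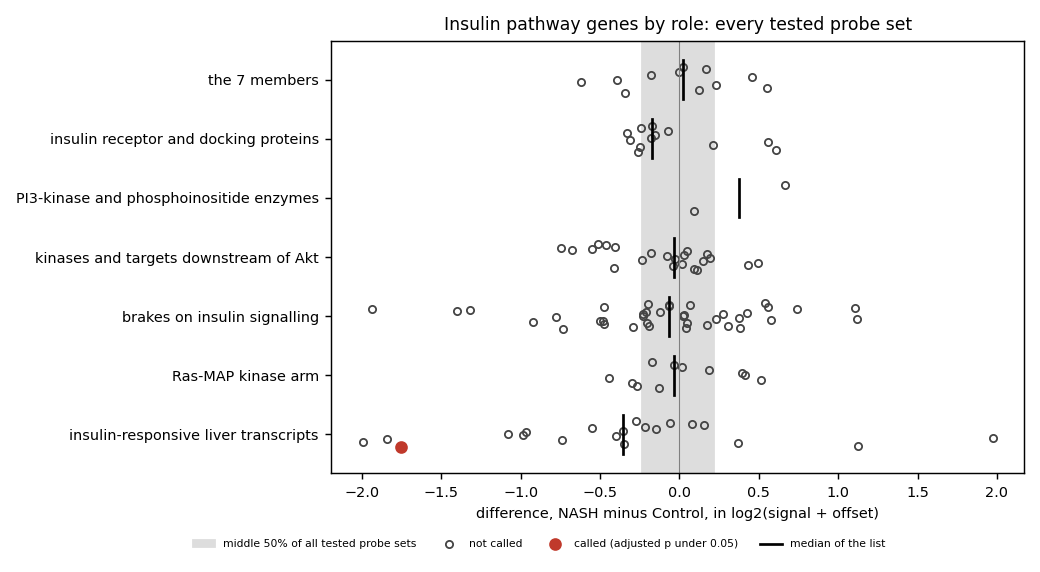
Each circle is 1 tested probe set, with its difference (NASH minus Control, in log2 units) on the horizontal axis, by list. Black bars are list medians, and the grey band holds the middle 50% of all 5244 tested probe sets, from −0.24 to 0.22. Medians of the members and of 4 of the 5 pathway lists lie inside the band. That of the PI3-kinase list, with 2 tested probe sets, lies above it at 0.38. The median of the insulin-responsive transcripts lies below it at −0.35. The filled red circle is Igfbp1.

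Transcripts known to respond to insulin in liver were the one list with a call. The list mixes transcripts that insulin represses, such as Igfbp1 and Pdk4, with ones it induces, such as Pklr. Its counts by sign therefore do not give a direction of insulin response. Of 20 tested probe sets of 12 genes, 5 were higher and 15 lower in NASH, and 1 was called lower, beside 0.0381% of all tested probe sets. That was Igfbp1, the binding protein whose transcription insulin represses, with 34.1, 27.9 and 30.6 in NASH, against 89.1, 126.1 and 115.9 in Control. The groups lay far apart relative to their spread, and the difference was −1.76 ± 0.21 (limma adjusted p = 0.0342). Its adjusted p lay between 0.0621 and 0.225 with any 1 array left out, while the difference ran from −1.88 to −1.69. Over all alternatives the adjusted p ran from 0.00968 to 0.279.

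No other transcript of this list passed the test. Pdk4, a kinase that insulin represses and that shuts pyruvate dehydrogenase, had 66.1, 32.8 and 46.4 in NASH, against 25.9, 3.08 and 10.7 in Control, a difference of 1.97 (limma adjusted p = 0.452) that was 1.38 without Control 2. Liver pyruvate kinase Pklr, which insulin and glucose induce, had 46.0, 25.1 and 26.3 in NASH, against 181.8, 68.8 and 130.8 in Control, a difference of −1.84 (adjusted p = 0.208). The glucose-6-phosphate transporter Slc37a4 had 302.0, 198.4 and 216.0 in NASH, against 459.5, 614.5 and 441.6 in Control on AF080468_g_at, a difference of −1.08 (adjusted p = 0.228). For these 3 the groups did not overlap, and none passed the threshold. Over the list, 9 of 20 probe sets did not overlap (45%, against 14.3% of all tested), of which 2 were higher and 7 lower in NASH. Both Slc37a4 probe sets are among the 7. The list was chosen with earlier results of these data known, so no conclusion is drawn from this share.

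**Figure D5:**
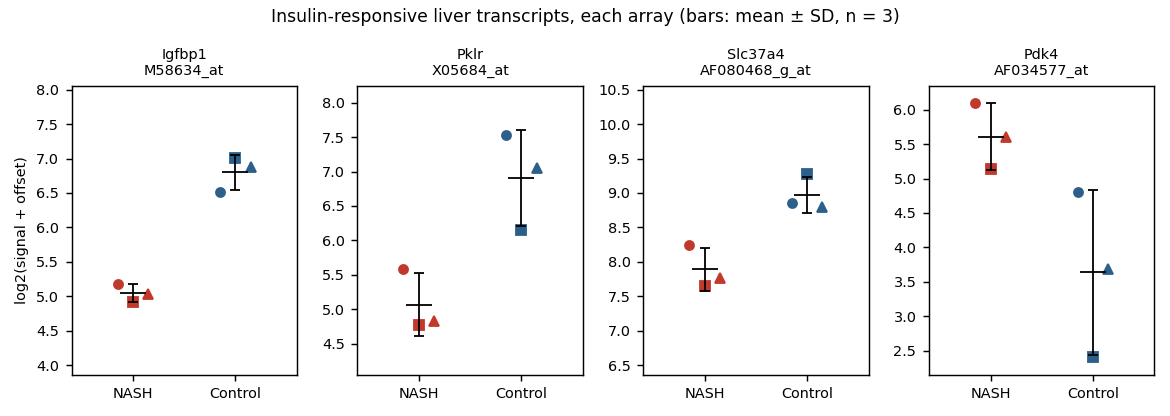
Each panel is 1 insulin-responsive liver transcript in log2(normalized signal + offset), NASH left of Control, with 1 point per array shaped by replicate number and bars for mean ± SD (n = 3 arrays per group). Igfbp1, Pklr and Slc37a4 lie lower in all 3 NASH arrays than in all 3 Control arrays, and Pdk4 lies higher.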

How the data were processed

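Affymetrix rat expression arrays (per the file headers) measured liver RNA of 6 samples, 1 array each. The deposited values are linear MAS5 intensities, 1 per probe set, with MAS5 named per the submitters' processing notes, where its version and scaling target are not given. Trimmed means (2%) ran from 73.6 to 117 over the arrays, so no common scale was present. Signals were quantile normalized, the 59 array controls were left out of 8799 probe sets, and log2 was taken after adding an offset of 2.21, the 10th percentile of deposited values. Because of the offset, fold changes of dim probe sets come out smaller than the change in signal. The 5244 probe sets with a mean log2 above 3.94, the 40th percentile, were tested with limma 3.58.1 in R 4.3.3 (lmFit, eBayes with trend, 4 residual and 3.90 prior degrees of freedom, no covariates), with p-values adjusted over all of them. The limma code was tested on simulated data.

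Symbols came from the platform annotation (1 symbol for 7006 probe sets, several for 308, none for 1426), and all 7 members matched the RefSeq table. Probe set specificity was not checked. Genes outside the 7 were named by a rule (called probe sets, and up to 4 genes with the smallest p in each list, and the closest pattern to each member), except Pdpk1, Foxo1, Gsk3a, Mtor, Gys2 and the markers Alb and Ttr, which were picked after their values were seen. Members and lists were chosen with earlier results of these data known. The labels do not say whether replicate numbers pair the samples, and the fit took them as unpaired. Deviations of same-numbered arrays correlated between −0.02 and 0.07, which cannot exclude a pairing that touches few genes. No 2 arrays held identical values (r from 0.930 to 0.970). The number of arrays limits the precision.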

Additional observations from a re-analysis of the deposited data

How the results depend on the processing

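No member was called in any of the settings that keep the adjusted threshold of 0.05, (other scalings, offsets, filters and variance priors, array weights, blocks, and arrays left out), and the lowest adjusted p of any member was 0.303 (Ptpn1 M33962_g_at with array weights). At an unadjusted p under 0.05, 1 member was found. The differences of Akt2 D30041_at (0.28 to 0.58), Ptpn1 M33962_g_at (0.40 to 0.61), Irs1, Akt1 rc_AA799664_at, Ptpn1 rc_AI113289_s_at and Gsk3b X53428cds_s_at kept their sign in every setting run.

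Signs turned for the following. Akt1 D30040_at differed by 0.0411 with trimmed mean scaling, 0.0234 with median centring, 0.0213 without an offset and 0.10 on the 4 arrays whose wash record is filled, and from −0.36 to 0.39 with 1 array left out. Insr differed by −0.0930 as deposited, by −0.40 between the arrays with a blank wash record, and from −0.22 to 0.22 with 1 array left out. Ptpn1 M33962_at differed by −0.14 between the blank-record arrays and from −0.0727 to 0.52 with 1 left out, and rc_AI112391_s_at by −0.00147 as deposited, −0.51 between the blank-record arrays and −0.11 to 0.48. Gsk3b X73653_at, at −0.62 in the main setting, differed by 0.26 between the blank-record arrays, where the untested Pik3r1 probe sets differed by −1.54 (D64045_s_at, 0.96 over all arrays) and −2.28 (U50412_at, 0.38 over all arrays). Pik3cd differed by −0.10 as deposited. The causes were not tested, beyond the fewer arrays used. Without scaling between arrays the median of all tested probe sets was −0.17, so deposited differences are to be read against that value.

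Over the whole array 7 probe sets were called, and 14 as deposited, 0 with no filter (lowest adjusted p 0.0553), 3 without the intensity trend, 18 with array weights, 3 with the wash record as a block, 1 on the filled-record arrays, 16 without both Control 2 and NASH 2, 14 at an adjusted p under 0.1, 412 at an unadjusted p under 0.05, and 0 to 17 with 1 array left out (17 without NASH 2). With the replicate block 1 was called, and no member, and the labels give same-numbered samples only that number in common. For the other pathway genes the count was 2 with array weights, 1 without both replicates 2, 1 at an adjusted p under 0.1 and 10 at an unadjusted p under 0.05.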
